A study of Mus musculus with 12 samples.

Results

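The neuropeptide precursor *Vgf*, the granins and the proteins that process prohormones were examined as 1 group of 10 genes, chosen by symbol: *Vgf*, *Scg2*, *Scg3*, *Scg5*, *Chga*, *Chgb*, *Pcsk1*, *Pcsk2*, *Cpe* and *Pcsk1n*. All 10 were among the 24480 genes of both deposited count tables, and all 10 passed the filter on low counts in both lines. RNA-seq was performed on the dorsolateral geniculate nucleus (dLGN), the visual relay of the thalamus, dissected at postnatal day 0 (P0). There were 12 libraries in 4 groups of 3, and each library pooled the dLGNs of 3 animals. *Sox2* mutants were Sox2 flox/flox with the RORα-Cre allele. Cre sits behind the coding sequence of *Rora* in this allele and recombines in postmitotic neurons of the sensory thalamus. Their controls were littermates, Sox2 flox/flox or flox/+, without Cre. *Nr2f1* mutants were Nr2f1 flox/flox with the same Cre allele. According to the study's methods, their controls were littermates, Nr2f1 flox/flox or flox/+, without Cre. The labels of these controls name both the Cre allele and its absence, and the methods were followed. Mutants but not controls thus carried the modified *Rora* allele in both lines, so that its presence and the deletion cannot be told apart. The question was whether the lower *Vgf* of the mutants was accompanied by lower levels of the other cargo of dense-core vesicles and of the proteins that process it.

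Dense-core vesicles store peptides and release them on strong or repeated stimulation. Granins are acidic secretory proteins that aggregate in the trans-Golgi network and fill these vesicles. Several of them, together with VGF, are also precursors that prohormone convertases cut at basic residues, after which carboxypeptidase E trims the ends of the fragments. VGF is a secreted neuronal protein that is induced by neurotrophins. In the thalamus it is made by relay neurons and carried along their axons to the cortex.

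Library totals lay between 39293470 and 50095336 counts. Levels are counts scaled to library size (CPM) after normalization by trimmed mean of M-values (TMM) within each line, and fold changes are log2 differences of mutants against the controls of their own line. A gene was called where its false discovery rate (FDR, Benjamini-Hochberg) was below 0.01 in the quasi-likelihood test of edgeR across all genes. With 3 pools a group, an exact two-sided permutation test of 1 gene cannot give p below 0.1. The targeted genes followed the labels. *Sox2* lay between 361 and 382 CPM in the controls of its line and between 116 and 152 in the mutants, and *Nr2f1* between 311 and 380.0 in its controls and between 101 and 151 in its mutants. Markers of thalamic glutamatergic neurons summed to 2607 to 3625 CPM over the 12 libraries, and markers of pallial neurons to 31.7 to 148. The lists hold 13 and 9 different genes, so the sums give no ratio of cell types.

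Control library 3 of the *Sox2* line stood apart for several of the genes. It had the lowest level of the 3 controls for 7 of the 10, among them *Scg2*, *Chgb*, *Chga* and *Pcsk2*, whereas it was the lowest for 41.2% of all genes tested. Its *Vgf* level was the highest of the 3. Meningeal markers summed to 1928 CPM in this library and to 982 and 993 in the other controls, and markers of neurons of any kind to 10719 against 12109.8 and 12472. Without it, the 3 genes called in *Sox2* mutants were still *Vgf*, *Scg5* and *Pcsk2*. For *Scg2* and *Chgb*, however, mutants and controls of this line overlapped only through control library 3. Controls 1 and 2 were at 305 and 303 CPM for *Scg2*, and mutants between 271 and 297. For *Chgb* they were at 204 and 215 CPM, and mutants between 151 and 177. Over 15 alternative settings the log2 fold change of *Chgb* lay between -0.36 and -0.10, and it was called in 0.

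For 8 of the 10 genes, RefSeq (GRCm38.p6) provided a promoter sequence, and none was used for *Vgf* or *Cpe*. The start used for *Pcsk1* and *Scg3* lay inside the annotated gene and not at its outer end. The *Pcsk1* promoter was chr13:75089607-75089856 (plus strand), in a gene from 75089420 to 75134861. The *Scg3* promoter was chr9:75684057-75684306 (minus strand), in a gene from 75643366 to 75685959. The 250 bases before the start were searched on both strands for the cyclic AMP response element TGACGTCA, the SOX core ACAATG and the nuclear receptor half-site AGGTCA, and no matches overlapped. The cyclic AMP response element stood in 3 of the 8 promoters, those of *Scg2*, *Chgb* and *Pcsk1*, with its first base 68, 72 and 78 bases before the start. It was found in 1.79% of the 32851 promoters of this length. The SOX core was found in 0 of the 8 and in 12.6% of all promoters, and the half-site in 0 of the 8 and in 16.3% of all. The promoters of *Scg2* (chr1:79440027-79440276, minus strand), which rose in 1 line, and of *Scg5* (chr2:113829092-113829341, minus strand), which fell in both, are given 5′ to 3′, with the cyclic AMP response element in capitals.
Scg2: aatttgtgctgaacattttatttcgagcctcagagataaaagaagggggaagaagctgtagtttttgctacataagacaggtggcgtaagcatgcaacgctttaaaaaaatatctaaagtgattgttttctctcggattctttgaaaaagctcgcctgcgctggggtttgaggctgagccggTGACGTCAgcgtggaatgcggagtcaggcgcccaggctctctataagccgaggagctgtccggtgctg
Scg5: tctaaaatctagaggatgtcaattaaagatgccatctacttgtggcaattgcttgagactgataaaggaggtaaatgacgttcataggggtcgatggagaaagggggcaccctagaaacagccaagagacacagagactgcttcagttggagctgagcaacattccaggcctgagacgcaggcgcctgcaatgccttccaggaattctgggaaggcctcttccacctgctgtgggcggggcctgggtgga

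In *Sox2* mutants 3 of the 10 genes were called. *Vgf* and *Scg5* were lower (2 of 10, where 4.19% of the 15602 genes tested were called lower), and *Pcsk2* was higher (1 of 10, against 3.9% called higher). In *Nr2f1* mutants 3 were called as well. *Vgf* and *Scg5* were again lower (2 of 10, against 1.32% of 15600 genes), and *Scg2* was higher (1 of 10, against 1.22%). *Chga*, *Chgb*, *Scg3*, *Pcsk1*, *Cpe* and *Pcsk1n* were called in neither line. Without *Vgf*, the median log2 fold change of the other 9 genes was 0.00 in *Sox2* mutants and -0.08 in *Nr2f1* mutants, beside 0.00 and 0.01 over all genes tested. Mutant libraries lay below all controls for 3 of the 10 genes of *Sox2* mutants (18.9% of all genes) and for 6 of *Nr2f1* mutants (14.3%). They lay above all controls for 1 (19% of all genes) and for 2 (14.4%).

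**Figure D1:**
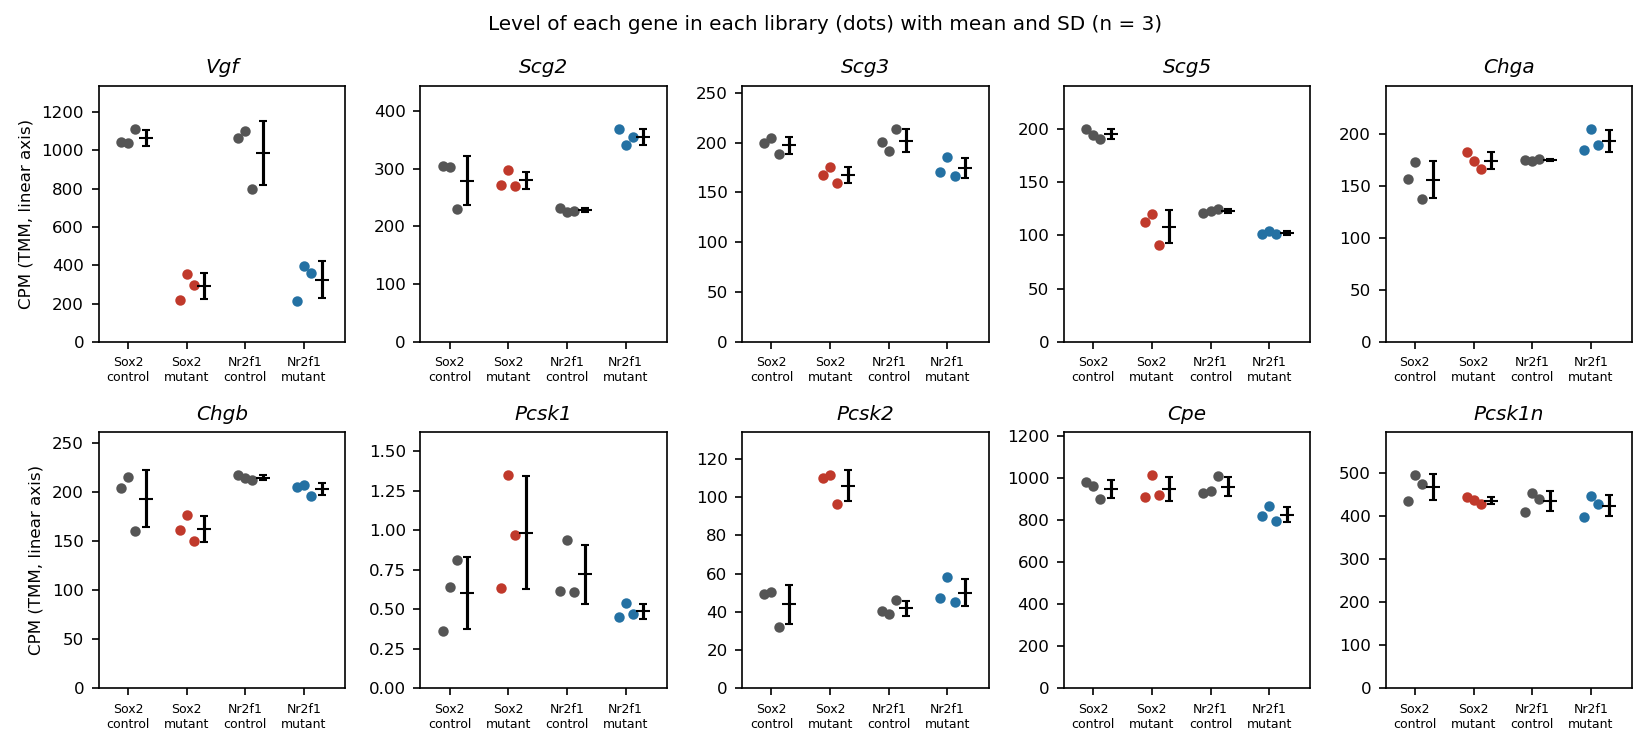
Level of each of the 10 genes in CPM (linear axis from 0, a scale of its own in each panel) in each library (dots), with mean and SD of the 3 libraries of each group. *Vgf* drops to 289 and 324 CPM in the mutants of the *Sox2* and *Nr2f1* lines, *Scg5* is lower in both, *Pcsk2* is at 106 CPM in *Sox2* mutants against 43.9 in their controls, and *Scg2* is at 355 CPM in *Nr2f1* mutants against 228.

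Among the granin cargo, *Vgf* (chromosome 5, 137025301 to 137033351 in GRCm38.p6) changed most. In the *Sox2* line it was measured at 1044, 1040.0 and 1114 CPM in controls and at 217, 353 and 298 in mutants. *Nr2f1* controls held 1065, 1102 and 797 CPM and *Nr2f1* mutants 215, 396 and 360.2. The groups did not overlap in either line, and the mutant means were 27.1% and 32.8% of the control means. The log2 fold change was -1.88 ± 0.15 (SE, FDR = 7.59e-05, edgeR) in *Sox2* mutants and -1.61 ± 0.21 (FDR = 0.0020) in *Nr2f1* mutants. In libraries of whole tissue, fewer cells of a type and less RNA per cell cannot be told apart. Only 0.212% and 0.167% of the genes tested had a more negative fold change. In *Nr2f1* mutants the FDR rose to 0.0140 without control library B and to 0.0125 without control library D, and it stayed below 0.01 without any other library of that line. The changes in the lines differed by -0.26 (95% interval -0.89 to 0.36, FDR = 0.745).

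Secretogranin II, encoded by *Scg2*, is a granin that is cut into secretoneurin and other peptides. Its levels in the *Sox2* line were 305, 303 and 229.6 CPM in controls and 272, 297 and 271 in mutants, which overlapped (log2 fold change 0.00, 95% interval -0.24 to 0.24, FDR = 0.985). *Nr2f1* controls were at 232, 225 and 227 CPM and *Nr2f1* mutants at 369, 341 and 355. There every mutant library was above every control, and *Scg2* rose by 0.64 ± 0.05 on the log2 scale (FDR = 1.48e-04), opposite in direction to *Vgf* in the same libraries. It ranked 19th of 15600 genes by p-value in that line.

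Secretogranin III (*Scg3*) binds granins and cholesterol-rich membrane and helps to sort cargo into vesicles. It was measured at 199, 205 and 188 CPM in *Sox2* controls and at 168, 176 and 159 in mutants, and at 201, 192 and 214 in *Nr2f1* controls and 171, 186 and 166 in mutants. The mutant libraries were below the controls in both lines, by -0.24 (95% interval -0.39 to -0.09) and -0.21 (-0.35 to -0.08) on the log2 scale. Neither difference was called (FDR = 0.0359 and 0.0624, edgeR).

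Chromogranin A (*Chga*) and chromogranin B (*Chgb*), the main granins of endocrine cells, were called in neither line. *Chga* lay between 137 and 173 CPM in *Sox2* controls and between 166 and 183 in mutants, and between 174 and 176 in *Nr2f1* controls and between 185 and 205 in mutants. Its log2 fold change was 0.16 (95% interval -0.03 to 0.36) in *Sox2* mutants and 0.14 (0.03 to 0.26) in *Nr2f1* mutants, with an FDR of 0.218 and 0.118. *Chgb* lay between 160.1 and 215 CPM in *Sox2* controls, between 151 and 177 in mutants, between 212 and 217 in *Nr2f1* controls and between 196 and 207 in mutants. Its log2 fold change was -0.25 (-0.49 to -0.0015) in *Sox2* mutants and -0.08 (-0.18 to 0.02) in *Nr2f1* mutants, with an FDR of 0.141 and 0.318. For *Scg2* in *Sox2* mutants and for *Scg3*, *Chga* and *Chgb* in both lines, the interval did not reach the change of *Vgf* in the same line.

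Of the convertases, *Pcsk2* was called in 1 line and *Pcsk1* in neither. PC2, encoded by *Pcsk2*, is a convertase of maturing vesicles that cuts many neuropeptide precursors. It was measured at 49.1, 50.5 and 32.2 CPM in *Sox2* controls and at 110.1, 111 and 96.6 in *Sox2* mutants, and rose by 1.27 ± 0.15 on the log2 scale (FDR = 5.26e-04). Its levels in *Nr2f1* controls were 40.4, 38.97 and 46.2 CPM and those in mutants 47.1, 58.3 and 44.9, which overlapped (0.26, 95% interval 0.02 to 0.49, FDR = 0.168). PC1/3 (*Pcsk1*), the convertase that acts earlier in the pathway, was hardly detected. Its 12 values lay between 0.362 and 1.35 CPM. The log2 fold change was 0.71 (95% interval -0.16 to 1.58, FDR = 0.226) in *Sox2* mutants and -0.56 (-1.26 to 0.14, FDR = 0.308) in *Nr2f1* mutants, so that an increase as large as that of *Pcsk2* lay within the interval in the *Sox2* line.

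Carboxypeptidase E (*Cpe*), which removes basic residues from cut peptides, was among the most abundant transcripts. In the *Sox2* line it was at 983, 962 and 901 CPM in controls and at 914, 1016 and 919.6 in mutants, a log2 fold change of 0.00 (95% interval -0.16 to 0.17, FDR = 0.990). Levels in *Nr2f1* controls were 928, 939 and 1012 CPM and those in *Nr2f1* mutants 818, 867 and 797. These groups did not overlap, and the difference of -0.21 ± 0.06 was not called by edgeR (FDR = 0.0496) but passed with DESeq2 (FDR = 0.00565).

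7B2, the product of *Scg5*, is a chaperone without which PC2 does not become active. In the *Sox2* line *Scg5* was measured at 200.1, 194 and 191 CPM in controls and at 113, 120.4 and 91.1 in mutants, and fell by 0.85 ± 0.10 on the log2 scale (FDR = 4.41e-04). *Nr2f1* controls held 121, 123 and 125 CPM and *Nr2f1* mutants 101, 104 and 101, and *Scg5* fell by 0.27 ± 0.04 (FDR = 0.0063). Mutants and controls did not overlap in either line. In *Nr2f1* mutants the call was lost without any of the libraries except mutant library B, with an FDR between 0.0227 and 0.0402, and also in 1 fit over all 12 libraries (FDR = 0.0596, edgeR). The change itself stayed between -0.26 and -0.28. *Scg5* and *Pcsk2* moved in opposite directions in *Sox2* mutants, and each of the 3 mutant libraries had less of the chaperone and more of the convertase than any control.

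The *Scg5* transcript also differed between the control groups. With all 12 libraries normalized together, its level was 193 ± 3.38 CPM (SD, n = 3) in *Sox2* controls and 124 ± 1.80 in *Nr2f1* controls. The *Nr2f1* controls lay close to the *Sox2* mutants, which on this scale were at 112, 120.3 and 90.6 CPM. Of the 15989 genes compared, 5.4% differed more between the control groups. Control groups did not overlap for 3 of the 10 genes, *Scg5*, *Chga* and *Chgb*, and for 23.1% of all genes. The lines are separate and their tables were deposited separately, so that line, genetic background and any processing batch cannot be told apart.

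ProSAAS, encoded by *Pcsk1n*, is a granin-like protein whose peptides inhibit PC1/3. Its levels ranged from 397 to 494 CPM over the 12 libraries and overlapped between mutants and controls in both lines. Its log2 fold change was -0.10 (95% interval -0.26 to 0.05, FDR = 0.331) in *Sox2* mutants and -0.04 (-0.17 to 0.10, FDR = 0.762) in *Nr2f1* mutants.

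**Figure D2:**
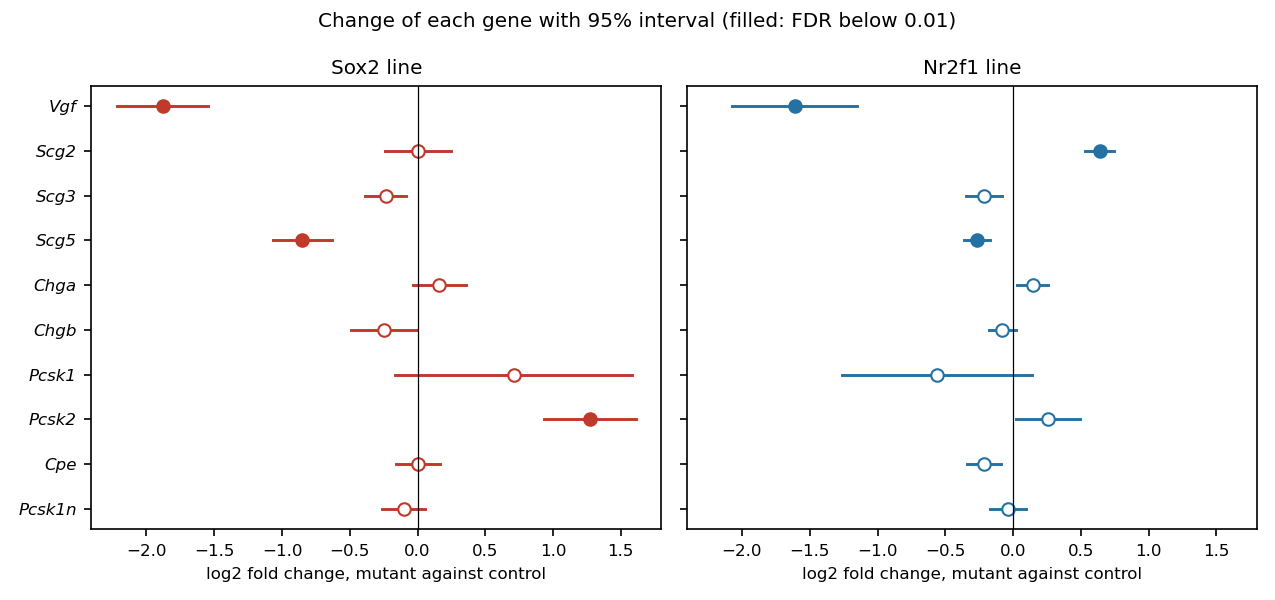
Log2 fold change of each gene in *Sox2* mutants (left) and *Nr2f1* mutants (right) with its 95% interval from edgeR. Filled points have an FDR below 0.01: *Vgf* at -1.88 and -1.61 and *Scg5* at -0.85 and -0.27 in the *Sox2* and *Nr2f1* lines, *Pcsk2* at 1.27 in the *Sox2* line and *Scg2* at 0.64 in the *Nr2f1* line.

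The changes in the mutants of the lines were then compared with each other, as a line-by-genotype term in a fit of all 12 libraries. None of the 10 genes passed FDR below 0.01 (0 of 10, beside 1.11% of 15989 genes called with the more negative change in *Sox2* mutants and 0.331% with the more positive one). The unadjusted p was below 0.05 for 5 of the 10, and for *Scg2*, *Scg5* and *Pcsk2* the FDR lay just above the threshold. The *Sox2* change minus the *Nr2f1* change was -0.63 for *Scg2* (95% interval -0.89 to -0.36, FDR = 0.0112), -0.58 for *Scg5* (-0.81 to -0.34, FDR = 0.0103) and 1.02 for *Pcsk2* (0.58 to 1.46, FDR = 0.0125). DESeq2 called all 3, as did the likelihood ratio test of edgeR. The others with an unadjusted p below 0.05 were *Pcsk1* and *Cpe*, with an FDR of 0.230 and 0.217.

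Levels of different genes can be compared only per transcript length. Per kilobase, *Cpe* ranked 72nd of 17899 genes in *Sox2* controls and 61st of 17965 in *Nr2f1* controls, and *Vgf* ranked 80th and 79th. *Pcsk1n* followed at rank 221 and 233, the other granins and *Scg5* between rank 312 and 925, *Pcsk2* at 6555 and 6634, and *Pcsk1* at 14914 and 14647. *Vgf* thus made up 26.0% ± 1.81 (SD, n = 3) of the summed level per length of the 10 genes in *Sox2* controls and 9.29% ± 1.82 in mutants. In *Nr2f1* controls its share was 25.7% ± 3.77 and 10.4% ± 2.69 in mutants. The share did not overlap between mutants and controls in either line.

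The summed level was 1605 ± 47.9 CPM per kilobase in *Sox2* controls and 1214 ± 72.8 in mutants, and 1504 ± 38.7 in *Nr2f1* controls and 1207 ± 64.2 in mutants. Without *Vgf*, the sum was 1188 ± 64.0 against 1101 ± 55.1 in the *Sox2* line. In the *Nr2f1* line it was 1117 ± 31.1 against 1079.9 ± 34.4. Mutants and controls overlapped in both, in the *Sox2* line only through control library 3, at 1116 CPM per kilobase. Controls 1 and 2 of that line, at 1211 and 1237, lay above every mutant library (1050 to 1160). The share of *Cpe* was 27.9% ± 0.666 in *Sox2* controls and 36.9% ± 0.293 in mutants, at a level per length of 448 and 449 CPM per kilobase. These sums weight each gene by its abundance and say nothing of how much peptide was made.

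**Figure D3:**
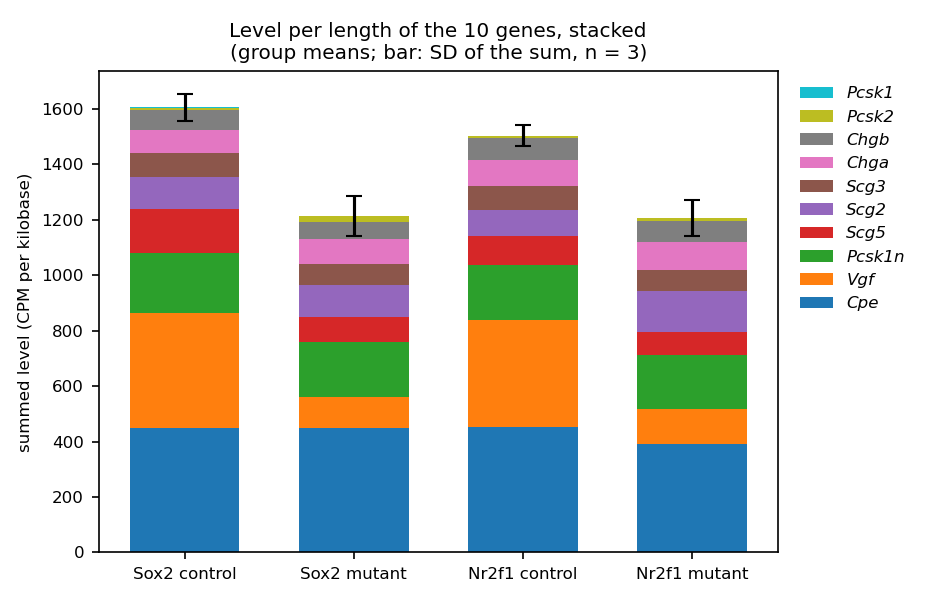
Summed level per transcript length of the 10 genes (CPM per kilobase, linear axis from 0), stacked by gene as group means, with the SD of the sum (n = 3). The *Vgf* segment shrinks from 418 to 113 CPM per kilobase in the *Sox2* line and from 387 to 127 in the *Nr2f1* line, and the sum of the other 9 genes differs less.

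To see which transcripts followed *Vgf* most closely, every gene's log2 level was taken relative to the mean of its own line's controls, and the root mean square difference from *Vgf* over the 12 libraries was computed for 15396 genes. The nearest were *Wnt9b*, a Wnt ligand (0.26), *Dkk4*, a secreted Wnt antagonist (0.31), *Slc6a4*, the serotonin transporter (0.33), *Cnr2*, a cannabinoid receptor (0.33), and *Zmat4*, a zinc finger protein (0.33). *Wnt9b* was measured at 112 CPM in *Sox2* controls and 27.9 in mutants, and at 121 in *Nr2f1* controls and 40.3 in mutants. None of the 5 nearest genes was a granin or a processing protein, an outcome nearly certain for 9 genes among 15396. The difference also grows where a gene's own fold change is unlike that of *Vgf*, so it is no separate evidence on the members. The nearest of the other 9 members was *Scg5* at rank 300 (0.91), followed by *Scg3* at rank 1512 (1.13) and *Chgb* at rank 2408 (1.18). *Scg2* was at rank 12660 and *Pcsk2* at rank 14936 of the 15396.

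The rest of the peptide pathway was taken from lists. Of 14 other processing enzymes, 1 was called in *Sox2* mutants, *Pcsk5*, which was lower (4.19% of all genes were called lower and 3.9% higher). In *Nr2f1* mutants 1 was called, *Pam*, which was higher (1.32% of all genes were called lower and 1.22% higher). The median log2 fold change of the list was -0.09 and 0.07. DESeq2 called 4 and 1. *Pcsk5*, a convertase of the constitutive pathway, was measured at 20.2, 20.2 and 17.4 CPM in *Sox2* controls and at 10.5, 11.6 and 9.60 in mutants. It fell by 0.87 ± 0.11 on the log2 scale (FDR = 8.19e-04). *Pam*, which amidates the ends of peptides, was measured at 53.5, 56.2 and 52.7 CPM in *Nr2f1* controls and at 71.6, 64.9 and 70.9 in mutants, and rose by 0.35 ± 0.06 (FDR = 0.0079). The ubiquitous convertase *Furin* had log2 fold changes of -0.01 and 0.04 with an FDR of 0.917 and 0.769.

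The machinery that forms, docks and releases dense-core vesicles was represented by 29 genes in the tables, of which 28 passed the filter in *Sox2* libraries and 29 in *Nr2f1* libraries. In *Sox2* mutants 3 were called, all of them higher, and in *Nr2f1* mutants 1 was called lower and 1 higher, with a median log2 fold change of -0.07 and 0.02. Over all genes 4.19% were called lower and 3.9% higher in the *Sox2* line, and 1.32% and 1.22% in the *Nr2f1* line. DESeq2 called 5 of the machinery genes in *Sox2* mutants and 3 in *Nr2f1* mutants. *Baiap3*, a protein of the Munc13 family that acts in dense-core vesicle exocytosis, rose in both lines, from 8.67 to 23.8 CPM in the *Sox2* line (1.45 ± 0.17, FDR = 5.26e-04) and from 8.95 to 19.4 in the *Nr2f1* line (1.12 ± 0.12, FDR = 6.69e-04). *Cadps2* (0.82, FDR = 5.57e-04) and *Rab3b* (1.09, FDR = 0.0012), a priming factor and a small GTPase of secretory vesicles, rose in *Sox2* mutants. *Cadps*, the priming factor CAPS1, fell in *Nr2f1* mutants (-0.34 ± 0.06, FDR = 0.0063) and had a change of -0.31 ± 0.09 in *Sox2* mutants (FDR = 0.0405).

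Other secreted cargo was taken from a list of neuropeptides and neurotrophins. Of its 36 genes, 23 were tested in the *Sox2* line, with 1 called lower and 3 higher, and 22 in the *Nr2f1* line, with 1 called, which was lower, against the same shares of all genes. DESeq2 called 6 and 4. The median log2 fold change of the list was 0.62 in *Sox2* mutants and 0.16 in *Nr2f1* mutants. Of the tested genes, 16 of 23 and 15 of 22 were higher. The list, *Cck* included, nevertheless summed to 242 to 260 CPM in *Sox2* controls and to 180 to 226 in mutants. For the *Nr2f1* line the sum was 212 to 237 CPM in controls and 111 to 117 in mutants. The gene called lower was in both lines *Cck*, the precursor of cholecystokinin. It was measured at 158, 163 and 183 CPM in *Sox2* controls and 63.3, 86.7 and 75.5 in mutants, and at 154, 134 and 146 in *Nr2f1* controls and 18.2, 38.7 and 19.9 in mutants. *Cck* fell by 1.16 ± 0.11 on the log2 scale in *Sox2* mutants (FDR = 1.81e-04) and had a change of -2.50 ± 0.24 in *Nr2f1* mutants (FDR = 4.37e-04). These changes differed by 1.34 with an FDR of 0.0234, above the threshold. The genes called higher in *Sox2* mutants were all low. *Nts*, the precursor of neurotensin, rose from 1.07 to 4.10 CPM, *Ntf3*, the precursor of neurotrophin 3, from 1.38 to 3.50, and *Adcyap1*, the precursor of PACAP, from 2.26 to 5.13. *Bdnf*, which encodes a neurotrophin that induces *Vgf*, was at 2.14 and 2.17 CPM in *Sox2* controls and mutants (FDR = 0.953) and at 1.41 and 2.93 in the *Nr2f1* groups (FDR = 0.0585).

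Among 4 proposed receptors of VGF or proSAAS peptides, 3 were tested. In *Sox2* mutants DESeq2 called 2 and edgeR called 1 higher, beside 3.9% of all genes called higher. The gene called by edgeR was *C3ar1*, a complement receptor that binds a VGF peptide. It was at 2.23 CPM in controls and 6.49 in mutants (1.54 ± 0.25, FDR = 0.0029). *C3ar1* is also expressed by microglia, whose markers summed to 146 to 164 CPM in *Sox2* controls and 304 to 359 in mutants. The part of these cells in the change of *C3ar1* was not tested. In *Nr2f1* mutants edgeR called 0 of the 3 receptors, with 1 at an unadjusted p below 0.05, and DESeq2 called 0. Of 11 regulators of granin genes that were tested, such as *Rest* and *Creb1*, 0 were called in either line by edgeR, 3 had an unadjusted p below 0.05 in each line, and DESeq2 called 0 in *Sox2* mutants and 1 in *Nr2f1* mutants. Of 14 activity-induced genes, 1 was called higher in *Sox2* mutants, beside the same 3.9% of all genes. It was *Arc*, which rose from 0.979 to 2.91 CPM (FDR = 0.0036). In *Nr2f1* mutants edgeR called 0 of the 14, with 2 at an unadjusted p below 0.05, and DESeq2 called 1.

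**Figure D4:**
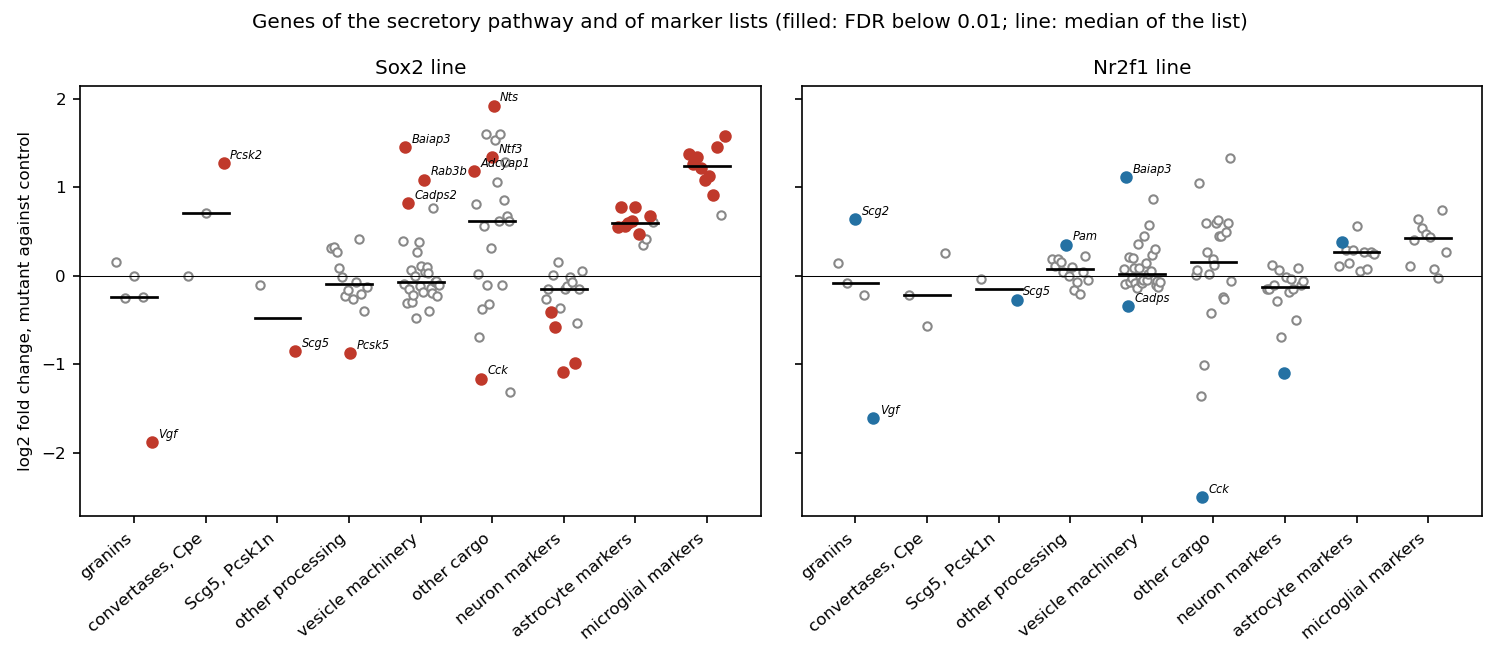
Log2 fold change of the genes of each list in *Sox2* mutants (left) and *Nr2f1* mutants (right). Filled points have an FDR below 0.01 and black lines are list medians. Among the vesicle machinery the medians are -0.07 and 0.02. In *Sox2* mutants 8 of 11 astrocyte and 9 of 10 microglial markers are called higher, beside 3.9% of all genes.

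Markers of several cell types moved with the mutants. Their counts of called genes stand beside 4.19% of all genes called lower and 3.9% higher in the *Sox2* line. In the *Nr2f1* line these shares were 1.32% and 1.22%. Markers of neurons of any kind summed to 10719 to 12472 CPM in *Sox2* controls and 10215 to 10822 in mutants, and to 12301 to 12697 in *Nr2f1* controls and 10659 to 11856 in mutants. Of these 16 markers, 4 were called lower in *Sox2* mutants and 1 in *Nr2f1* mutants, with a median log2 fold change of -0.15 and -0.13. Of 13 markers of thalamic glutamatergic neurons, 5 were called lower and 2 higher in *Sox2* mutants, and 1 lower and 2 higher in *Nr2f1* mutants, with a median log2 fold change of 0.06 and 0.10. Their sum lay between 2765 and 3478 CPM in *Sox2* controls and between 2607 and 2709.8 in mutants, and between 3281 and 3589.6 and between 3144 and 3625 in the *Nr2f1* groups. The markers called in *Sox2* mutants were *Rora*, *Lef1*, *Slc17a6*, *Ntng1* and *Lhx9*, which were lower, and *Calb2* and *Gbx2*, which were higher. Those called in *Nr2f1* mutants were *Lef1*, lower, and *Lhx2* and *Cacna1g*, higher. *Slc17a6* was at 231 CPM in controls and 119 in mutants of the *Sox2* line (-0.96 ± 0.10, FDR = 3.36e-04). It was at 246 and 239 in the *Nr2f1* line (-0.04 ± 0.10, FDR = 0.836). *Rora*, a nuclear receptor of relay neurons and the gene that carries Cre in the mutants, is among these markers. It was at 335 CPM in controls and 85.7 in mutants of the *Sox2* line (-1.96 ± 0.12, FDR = 2.07e-05), and at 379 and 319 in the *Nr2f1* line (-0.25 ± 0.11, FDR = 0.204).

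Astrocyte markers, of which 8 of 11 were called higher in *Sox2* mutants and 1 in *Nr2f1* mutants, summed to 2515 to 3036 CPM in *Sox2* controls and 3751 to 4317 in mutants, and to 2181 to 2229 and 2513 to 2703 in the *Nr2f1* groups. Astrocytes also express *Cpe* and *Scg3*. Markers of microglia, of which 9 of 10 were called higher in *Sox2* mutants, summed to 146 to 164 and 304 to 359 CPM in the *Sox2* line and to 119.9 to 141 and 153 to 187 in the *Nr2f1* line. In the latter edgeR called 0, with 6 at an unadjusted p below 0.05, and DESeq2 called 4. Of 10 markers of GABAergic neurons, edgeR called 0 in either line. In *Sox2* mutants 9 of them had an unadjusted p below 0.05 and DESeq2 called 5, and in *Nr2f1* mutants these counts were 4 and 0. Their sum lay between 389 and 444 CPM in *Sox2* controls and between 477 and 506 in mutants, the libraries in which *Pcsk2* was higher. Of 10 markers of the ventral geniculate nucleus and intergeniculate leaflet, 10 were higher in *Sox2* mutants, of which edgeR called 2 and DESeq2 6, with sums of 113 to 132 CPM in controls and 168 to 176 in mutants. In *Nr2f1* mutants 9 were higher, of which edgeR called 0, with 6 at an unadjusted p below 0.05, and DESeq2 called 1, with sums of 119 to 135 and 129 to 212. No marker of these lists was at 0 throughout a group.

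Meningeal and endothelial markers were higher in the mutants of both lines, for 7 of 7 genes each, and edgeR called 0 of them. Meningeal markers summed to 982 to 1928 CPM in *Sox2* controls and 1490.1 to 3312 in mutants, and to 762 to 1142 and 1081 to 2453 in the *Nr2f1* groups. Of these, 4 and 6 had an unadjusted p below 0.05 in the *Sox2* and *Nr2f1* lines, and DESeq2 called 0 in either. Endothelial markers summed to 299 to 457 and 415 to 533 CPM in the *Sox2* line and to 276 to 341 and 329.9 to 467 in the *Nr2f1* line. Their unadjusted p was below 0.05 for 5 and 7 genes, and DESeq2 called 0 and 3. Pallial markers were higher for 9 of 9 genes in *Sox2* mutants, with 1 called and sums of 31.7 to 57.4 CPM in controls and 53.4 to 148 in mutants. In *Nr2f1* mutants 3 of 9 were higher and edgeR and DESeq2 called 0, with 1 at an unadjusted p below 0.05. The part of all these cell types in the changes of *Vgf*, *Pcsk2*, *Scg5*, *Scg2* and *Cpe* was not tested.

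Male-specific genes differed in level between pools. In both lines edgeR and DESeq2 called 0 of these 4 genes, with 0 at an unadjusted p below 0.05. Their sum was 43.6, 69.1 and 97.3 CPM in *Nr2f1* controls and 0, 32.5 and 52.0 in mutants. Mutant library A, at 0, had the lowest *Vgf* of that line (215 CPM). In the *Sox2* line the sum lay between 33.6 and 114 CPM in controls and between 54.3 and 110.2 in mutants. With the mean log2 level of these genes as a covariate, *Vgf* stayed called in *Nr2f1* mutants (-1.34, FDR = 0.0083, edgeR) and *Scg5* did not (FDR = 0.0597).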

How the data were processed

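RNA was measured in 12 libraries, in 4 groups of 3. According to the study's methods, the authors mapped paired reads with STAR to the RefSeq mouse transcriptome and estimated counts per gene with RSEM. The submitters' notes name STAR and mm10, and versions are not given in the sources used here. The values used are the expected counts that the authors deposited, not normalized, in 1 table for each line. Of these, 7.77% were not whole, and all were rounded. Column names gave the group of each library, and the letters and numbers of libraries are those of the columns. Replicates are separate pools of animals.

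Genes were filtered by filterByExpr (minimum count 10, minimum total 15), normalized by TMM and tested with glmQLFit and glmQLFTest of edgeR 4.0.16 in R 4.3.3, each line against its own controls, at an FDR below 0.01. The interaction was fitted over all 12 libraries. DESeq2 1.42.0 was an alternative. Intervals of fold changes are the estimate ± the t quantile times its SE. Transcript lengths are medians over the GENCODE transcripts of a gene that are matched to RefSeq, known for 95.7% of the genes detected in controls. The tests were checked on simulated counts. RSEM divides reads between similar transcripts, and this was not repeated. The members, lists and tests were chosen with earlier results of these data known. Genes were named if they were members, the targets, called genes of the pathway lists, or the 5 nearest to *Vgf*. *Bdnf*, *Furin*, *Rora* and the called markers of thalamic glutamatergic neurons were named in addition, after their values had been seen.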

Additional observations from a re-analysis of the deposited data

Results flagged for a closer look

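Among the members, the pathway lists, the targets, *Rora* and the 5 genes nearest to *Vgf*, the change of 5 genes differed between the mutants. The test was the interaction test of edgeR at an FDR below 0.01. *Sox2* and *Nr2f1* are among the 5, and each was deleted in 1 line only. None of the 5 is a member. *Scg5*, *Scg2* and *Pcsk2* lay just above the threshold (FDR = 0.0103, 0.0112 and 0.0125), and DESeq2 called them. *Pcsk5* was at 19.3 ± 1.62 CPM (SD, n = 3) in *Sox2* controls and 10.6 ± 1.03 in mutants, and at 27.1 ± 0.600 and 29.0 ± 2.19 in the *Nr2f1* groups. The *Sox2* change minus the *Nr2f1* change was -0.96 (FDR = 6.67e-04). *Pam* was at 56.6 ± 1.85 and 48.5 ± 4.395 CPM in *Sox2* controls and mutants and at 54.1 ± 1.85 and 69.1 ± 3.66 in the *Nr2f1* groups, a difference of changes of -0.57 (FDR = 0.00507). *Sox2* was at 369 ± 11.7 and 139 ± 20.2 CPM in its own line and at 356 ± 16.0 and 243 ± 33.7 in the *Nr2f1* line, a difference of -0.84 (FDR = 0.0060). *Nr2f1* was at 332 ± 21.3 and 254 ± 51.2 CPM in the *Sox2* line and at 354 ± 37.5 and 119 ± 27.5 in its own, a difference of 1.19 (FDR = 0.0074). *Rora* was at 335 ± 33.6 and 85.7 ± 12.7 CPM in the *Sox2* line and at 379 ± 34.9 and 319 ± 52.4 in the *Nr2f1* line, a difference of -1.70 (FDR = 1.18e-04). Groups of 3 libraries were not tested for outlying values.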

How the results depend on the processing

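In *Sox2* mutants, *Vgf*, *Scg5* and *Pcsk2* were called under all 15 alternatives. In *Nr2f1* mutants *Scg2* was called in 14 of 14, *Vgf* in 12 and *Scg5* in 7. Members called stayed at 3 in the *Sox2* line and ranged from 1 to 3 in the *Nr2f1* line without 1 library. In the *Nr2f1* line only *Scg2* was called without control library B or D. In the test between the lines, 0 to 2 members were called without 1 library, 3 at FDR below 0.05, 3 without a filter, 3 with DESeq2, 3 in the likelihood ratio test, 1 with at least 10 counts in every library and 1 with upper quartile normalization. Over all genes, 1261 were called in the *Sox2* line, 3095 at FDR below 0.05, 2468 with DESeq2, 2351 in the likelihood ratio test, 2075 in 1 fit over 12 libraries and 494 to 2161 without 1 library. In the *Nr2f1* line 396 were called, and 1154, 1112 and 1089 under the first 3 of these, 84 with male-specific genes as covariate and 133 to 868 without 1 library. In the test between the lines 231 were called, and 538, 544, 496, 117 and 133 to 308 under the same settings. Signs reversed for small changes only. With male-specific genes as covariate *Scg2* was at -0.024 in the *Sox2* line, *Pcsk1n* at 0.023 in the *Nr2f1* line and the difference for *Chga* at -0.042. With upper quartile normalization the difference for *Scg3* was 0.015. Without 1 library, *Scg2* in the *Sox2* line ranged from -0.11 to 0.071, *Cpe* from -0.049 to 0.037, *Pcsk1n* in the *Nr2f1* line from -0.078 to 0.0085, and the differences for *Scg3* from -0.051 to 0.047 and for *Chga* from -0.052 to 0.12. The cause of these shifts was not tested.

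The column numbers 1 and 3 occur in both groups of the *Sox2* line, and same-numbered libraries deviated together with r = 0.177 and 0.157. No source ties them, so they share only a number. With the replicate block, 1611 genes and the same 3 members were called (*Vgf* -1.96, *Scg5* -0.74, *Pcsk2* 1.48). In the *Nr2f1* line no paired analysis was possible because the groups share only the letter B. *Pcsk1*, at about 1 CPM, was limited by its low counts.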
